A study of Mus musculus with 8 samples.

Results

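Superoxide dismutases, catalase and peroxiredoxins are the enzymes that remove superoxide and hydrogen peroxide from cells, and their mRNA levels were compared in the liver of mice fed a high-fructose diet (HFrD) and mice fed a normal diet (ND). The family was defined by gene symbol. The members are *Sod1*, *Sod2* and *Sod3*, the single catalase gene *Cat*, and *Prdx1* to *Prdx6*, which makes 10 of the 22564 protein-coding genes listed. All 10 were found. The study used male C57BL/6J mice, an inbred strain, which were 10 to 11 weeks old when bought and received the HFrD or the ND for 2 weeks. Energy in the HFrD came to 10% from fat, 70% from carbohydrate and 20% from protein. Liver RNA was depleted of ribosomal RNA and sequenced from 4 HFrD mice (mice 1, 2, 5 and 7) and 4 ND mice (mice 1, 3, 6 and 7), with 1 library for each mouse. All mice are of the inbred strain without a transgene in the labels, so the diets are the only stated difference, and the p-values measure the spread between these mice.

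Superoxide is formed when electrons leak to oxygen, mainly from the respiratory chain and from NADPH oxidases, and superoxide dismutases convert it to hydrogen peroxide. Catalase breaks down hydrogen peroxide inside peroxisomes, an organelle that is abundant in hepatocytes and in which fatty acid and purine oxidases release the peroxide. Peroxiredoxins reduce hydrogen peroxide and lipid peroxides through a reactive cysteine that thioredoxin or glutathione then restores, and different members work in the cytosol, mitochondria, endoplasmic reticulum and peroxisomes.

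Levels are given in FPKM (fragments per kilobase and library size), as computed by the authors. Comparison between mice rests on that scaling, so the fits were repeated after quantile normalization and with equal medians. The liver label held, since *Alb* averaged 33791 ± 2827 FPKM in HFrD and 27975 ± 3824 FPKM in ND mice (SD, n = 4 each), and the summed FPKM of 10 hepatocyte markers ranged over 44396 to 53920 in the HFrD mice and 38674 to 47601 in the ND mice. Absolute depth is unknown. Relative to ND mouse 1, depth was estimated at 1.13 to 1.49 in HFrD and 0.989 to 1.18 in the other ND libraries. The estimate is the commonest ratio of FPKM among detected genes under 0.5 FPKM. It was not taken from read counts and depends on the authors' scaling. The first principal component held 42.5% of the variance and separated the diets, with HFrD mouse 1 and ND mouse 7 closest to the opposite side. The 11476 genes that averaged 0.5 FPKM or more were tested on the log2(FPKM + 1) scale with limma (a linear model per gene, with variance information pooled over genes). A gene was called at an adjusted p (Benjamini and Hochberg, over all 11476 genes) under 0.05. All 10 members passed the filter on low levels.

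*Cat*, *Sod1* and *Prdx1* dominated the family. Over the 8 mice, *Cat* ranked 64th, *Sod1* 76th and *Prdx1* 107th of all genes by mean FPKM, and *Sod3*, the enzyme secreted into the extracellular space, ranked 8225th. *Cat* made up 30.4 ± 1.42% of the summed FPKM of the 10 members in HFrD and 36.6 ± 1.88% in ND mice (SD, n = 4 each). *Sod1* made up 29.4 ± 2.46% in HFrD and 25.4 ± 1.98% in ND mice, and *Prdx1* made up 19.4 ± 1.57% in HFrD and 18.3 ± 0.606% in ND mice. In ND mice *Cat* was the most abundant member in every mouse, and its range of 1041 to 1138 FPKM lay above that of *Sod1* at 694 to 858 FPKM. In HFrD mice *Cat* at 706 to 898 FPKM and *Sod1* at 721 to 861 FPKM overlapped, and their order could not be told beyond the spread between mice. By the mean over all 8 mice, the next members were *Prdx6*, *Prdx5*, *Prdx4*, *Prdx3*, *Prdx2* and *Sod2*. In HFrD mice the range of *Prdx3* overlapped those of *Prdx2* and *Prdx4*, and *Sod2* lay below all of them. In ND mice the order of the lowest of these differed, since *Sod2* averaged 55.7 FPKM, beside 56.9 FPKM for *Prdx3* and 51.2 FPKM for *Prdx2*, with overlapping ranges.

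**Figure D1:**
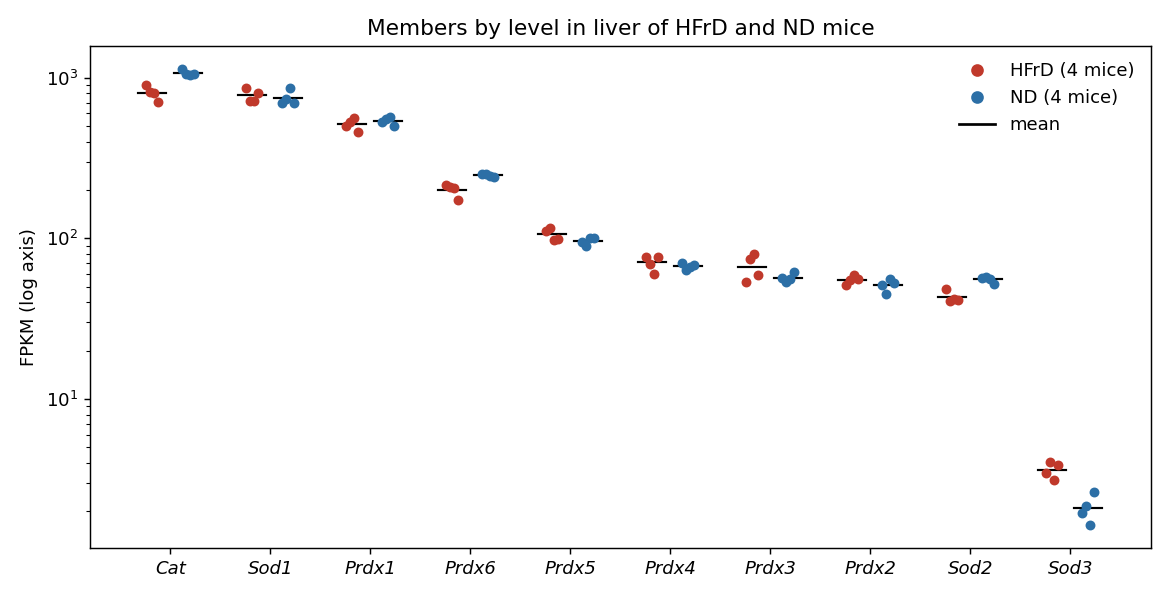
FPKM on a log axis for each of the 10 members, ordered by mean, with 1 point for each of 4 HFrD and 4 ND mice and a bar at the mean of each diet. *Cat*, *Sod1* and *Prdx1* lie at 459 FPKM or above, and *Sod3* lies at 1.65 to 4.03 FPKM.

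Against this background, 3 of the 10 members were called between the diets. *Sod3* was up-regulated in HFrD mice, and *Cat* and *Sod2* were down-regulated. Of all genes tested, 5.44% were called higher (624 genes) and 3.69% lower (423 genes), or 9.12% in either direction, and with medians set equal between libraries these counts were 552 higher and 614 lower. The values of 4 members did not overlap between the diets, *Prdx6* being the fourth, against 16.6% of all genes tested. The median difference of the members was 0.064 on the log2 scale, beside 0.014 for all genes tested.

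**Figure D2:**
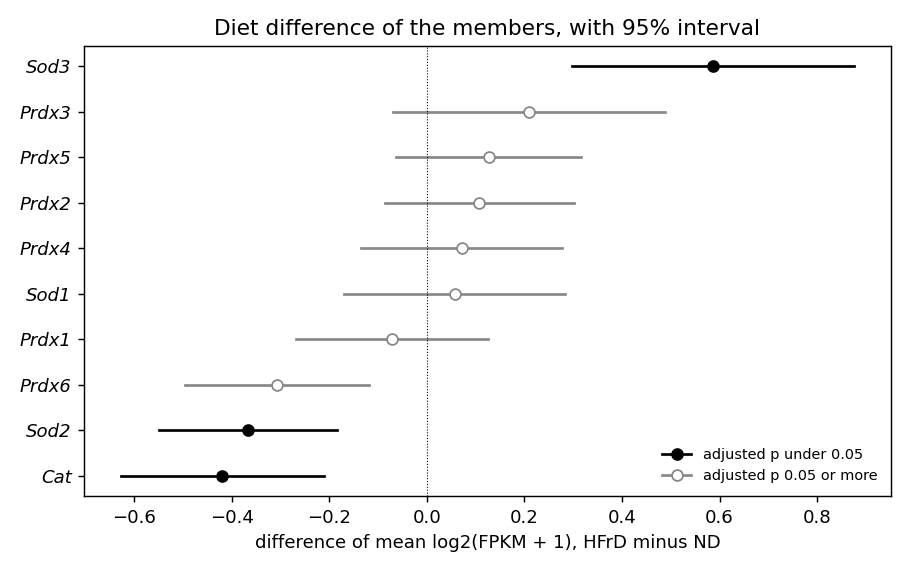
Difference of mean log2(FPKM + 1) between 4 HFrD and 4 ND mice for each member, with its 95% interval from limma. Filled points mark *Sod3* at 0.59, *Sod2* at -0.37 and *Cat* at -0.42, whose adjusted p was under 0.05, and the intervals of *Sod1*, *Prdx1*, *Prdx2*, *Prdx3*, *Prdx4* and *Prdx5* include 0.

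Among the superoxide dismutases the diet differences ran in different directions. *Sod2* encodes the manganese enzyme of the mitochondrial matrix and lies at chr17:13006846-13040063 on the plus strand of GRCm38 (mm10). Its level was 48.2, 40.6, 42.1 and 41.3 FPKM in HFrD mice 1, 2, 5 and 7, against 56.9, 57.8, 56.2 and 52.0 FPKM in ND mice 1, 3, 6 and 7. Every HFrD mouse was below every ND mouse, and HFrD mouse 1 and ND mouse 7 were nearest to each other. The mean was 43.0 ± 3.50 FPKM in HFrD and 55.7 ± 2.53 FPKM in ND mice (SD, n = 4 each), and *Sod2* fell by 0.37 on the log2 scale (SE 0.082, 95% interval -0.55 to -0.18, limma adjusted p = 0.0229). By exact permutation (two-sided, all 70 divisions of the mice), p was 0.0286, the smallest value possible with 4 mice against 4. In bulk liver, fewer cells of a type and less RNA per cell cannot be told apart. The call was lost when HFrD mouse 2, 5 or 7 or ND mouse 1, 3 or 6 was left out (highest limma adjusted p 0.0689, reached with ND mouse 3 left out). It was kept without HFrD mouse 1 or ND mouse 7. The longest *Sod2* transcript shares stretches of 150 bases or more, at 95% identity or more, with 10 other genes, so fragments from them could be assigned to either.

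*Sod3* encodes the extracellular copper and zinc enzyme, which binds to the matrix and vessel wall, and lies at chr5:52363791-52371418 on the plus strand. Its level was 3.46, 4.03, 3.13 and 3.89 FPKM in HFrD mice 1, 2, 5 and 7, against 1.94, 2.15, 1.65 and 2.64 FPKM in ND mice 1, 3, 6 and 7. The groups did not overlap, and ND mouse 7 was the highest ND mouse. The mean was 3.63 ± 0.412 FPKM in HFrD and 2.09 ± 0.419 FPKM in ND mice (SD, n = 4 each), a ratio of 1.73. On the log2(FPKM + 1) scale, which understates the change of a gene at so low a level, *Sod3* rose by 0.59 (SE 0.13, 95% interval 0.30 to 0.88, limma adjusted p = 0.0222, exact permutation p = 0.0286). The call was lost without HFrD mouse 2 or 7 or ND mouse 1, 3 or 6 (limma adjusted p up to 0.0654, without HFrD mouse 2). *Sod3* contributed 0.138% of the summed FPKM of the members in HFrD and 0.0717% in ND mice.

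*Sod1*, the copper and zinc enzyme of the cytosol (chr16:90220754-90226329, plus strand), was 861, 721, 721 and 803 FPKM in HFrD mice 1, 2, 5 and 7, against 695, 741, 858 and 694 FPKM in ND mice 1, 3, 6 and 7. The diets overlapped over nearly their whole range. The log2 difference was 0.057 (95% interval -0.17 to 0.28, limma adjusted p = 0.771), and it changed sign to -0.028 when both HFrD mouse 1 and ND mouse 7 were left out. One processed pseudogene is near-identical to *Sod1*, and 650 bases of the gene are overlapped by *Scaf4* on the other strand. Because *Sod1* held most of their mRNA, the summed FPKM of the 3 superoxide dismutases was 823 ± 71.2 in HFrD and 805 ± 77.4 in ND mice (SD, n = 4 each).

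*Cat* encodes catalase, the heme enzyme of the peroxisome, and lies at chr2:103453849-103485160 on the minus strand. Its level was 898, 816, 799 and 706 FPKM in HFrD mice 1, 2, 5 and 7, against 1138, 1058, 1041 and 1057 FPKM in ND mice 1, 3, 6 and 7. No HFrD mouse reached the lowest ND mouse, and HFrD mouse 7 was the lowest of all. With means of 805 ± 78.8 FPKM in HFrD and 1074 ± 43.8 FPKM in ND mice (SD, n = 4 each), *Cat* fell by 0.42 on the log2 scale (SE 0.093, 95% interval -0.63 to -0.21, limma adjusted p = 0.0225, exact permutation p = 0.0286). In FPKM this is a change of -25.0%. After quantile normalization the log2 difference of *Cat* shrank to -0.30 (limma adjusted p = 0.0467). The call was lost without HFrD mouse 2, 5 or 7 or ND mouse 1, 3 or 6 (limma adjusted p up to 0.0718, without ND mouse 1). No near-identical copy and no overlapping gene was found for *Cat*.

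**Figure D3:**
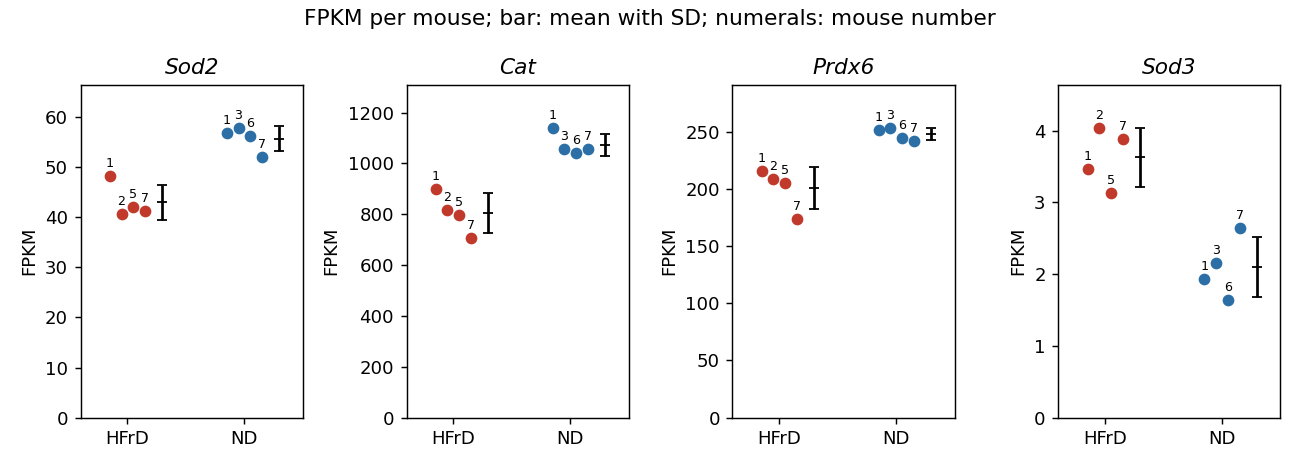
FPKM of *Sod2*, *Cat*, *Prdx6* and *Sod3* in each HFrD mouse and each ND mouse, on linear axes from 0, with numerals for the mouse number and the mean with its SD beside the points. The diets do not overlap for any of the 4 genes: *Sod2*, *Cat* and *Prdx6* are lower in every HFrD mouse, and *Sod3* is higher.

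The 2 members that were down-regulated are shown with the sequence before their start sites, beside *Sod1* and *Prdx1*, the most abundant members after *Cat*, which were not called. The sequences are the 250 bases before each RefSeq start site on GRCm38.p6, written 5′ to 3′ on the strand of the gene, and 8 of the 10 members had one in the table used, *Sod3* and *Prdx6* not among them. Capitals mark matches, on either strand, to common promoter motifs. These are the GC box, with the letters GGGCGG, and the box known by its letters CCAAT. The remaining pair are the TATA box, searched as TATAAA, and the core of the antioxidant response element at which Nrf2 binds, searched as TGACNNNGC. The coordinates are chr17:13007589-13007838 (plus strand) for *Sod2*, chr2:103485154-103485403 (minus strand) for *Cat*, chr16:90220512-90220761 (plus strand) for *Sod1* and chr4:116685349-116685598 (plus strand) for *Prdx1*.
Sod2: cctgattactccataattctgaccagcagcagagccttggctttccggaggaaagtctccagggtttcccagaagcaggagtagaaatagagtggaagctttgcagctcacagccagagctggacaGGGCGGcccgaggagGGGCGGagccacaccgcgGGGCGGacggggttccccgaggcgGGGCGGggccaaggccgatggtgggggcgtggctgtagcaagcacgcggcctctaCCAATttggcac
Cat: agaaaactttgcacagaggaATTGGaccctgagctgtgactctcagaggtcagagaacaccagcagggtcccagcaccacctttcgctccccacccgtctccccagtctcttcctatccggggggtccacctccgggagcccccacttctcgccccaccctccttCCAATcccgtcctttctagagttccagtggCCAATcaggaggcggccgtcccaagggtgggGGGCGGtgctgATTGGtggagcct
Sod1: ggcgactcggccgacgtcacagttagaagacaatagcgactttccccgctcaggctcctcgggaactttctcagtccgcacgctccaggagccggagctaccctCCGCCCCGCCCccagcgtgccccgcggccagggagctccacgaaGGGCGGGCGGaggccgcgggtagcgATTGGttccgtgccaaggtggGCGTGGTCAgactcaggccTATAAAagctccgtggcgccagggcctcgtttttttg
Prdx1: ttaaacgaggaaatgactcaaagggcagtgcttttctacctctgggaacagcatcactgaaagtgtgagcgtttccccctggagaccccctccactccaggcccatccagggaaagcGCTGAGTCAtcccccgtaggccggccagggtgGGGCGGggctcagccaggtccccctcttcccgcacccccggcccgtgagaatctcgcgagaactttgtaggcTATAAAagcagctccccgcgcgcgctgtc

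The *Sod2* window held 4 GC boxes and 1 CCAAT box, and the *Cat* window held 1 GC box and 4 CCAAT boxes. Neither had a match to TATAAA or to TGACNNNGC. *Sod1* and *Prdx1* each had a TATAAA match and a TGACNNNGC match. In all, a GC box was found in 7 of the 8 windows (32.7% of 32851 windows of the same length), a CCAAT box in 4 (33.9%), a TATA box in 3 (12.4%) and TGACNNNGC in 2 (10.2%). The FOXO site GTAAACA was found in 0 of the 8 and in 3.17% of all windows. All 8 windows had more G and C than the median window, at 55.6 to 69.2% against 52.4%. These matches describe the letters only and are not evidence of binding.

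The peroxiredoxins had no called member, and *Prdx6* came closest. *Prdx6* encodes the cytosolic peroxiredoxin with a single reactive cysteine, which uses glutathione and also has phospholipase activity, and lies at chr1:161240112-161251219 on the minus strand. Its level was 215, 208, 205 and 174 FPKM in HFrD mice 1, 2, 5 and 7, against 252, 253, 245 and 241 FPKM in ND mice 1, 3, 6 and 7. The groups did not overlap, and the ND mice lay close together. The mean was 201 ± 18.4 FPKM in HFrD and 248 ± 5.47 FPKM in ND mice (SD, n = 4 each), with a log2 difference of -0.31 (SE 0.085, 95% interval -0.50 to -0.12). The limma adjusted p was 0.0502, just outside the threshold, and the exact permutation p was 0.0286. Across the other settings the limma adjusted p was 0.0310 to 0.0812, and 6 of 9 settings put it under the threshold. Among the 6 is the fit without HFrD mouse 1 and ND mouse 7, the mice closest to the opposite diet, which was added after seeing the data. The limma adjusted p of *Prdx6* was also under the threshold without HFrD mouse 1 (0.0355) and not without any other single mouse (up to 0.118, without ND mouse 3). *Prdx6b*, a close relative, was listed at 0 in every library.

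*Prdx3*, the mitochondrial peroxiredoxin (chr19:60864051-60874556, minus strand), was the most variable member among HFrD mice. It was 53.3, 74.4, 79.7 and 59.5 FPKM in HFrD mice 1, 2, 5 and 7, against 56.4, 53.6, 56.2 and 61.4 FPKM in ND mice 1, 3, 6 and 7. HFrD mice 2 and 5 were above every ND mouse, whereas HFrD mice 1 and 7 were within or just below the ND range. The coefficient of variation was 18.5% in HFrD and 5.70% in ND mice, and the log2 difference was 0.21 (95% interval -0.070 to 0.49, limma adjusted p = 0.332). *Sod2* and *Prdx3* together, the mitochondrial pair, summed to 101 to 122 FPKM in HFrD and 111 to 113 FPKM in ND mice.

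The other peroxiredoxins overlapped between the diets. *Prdx1* (chr4:116685544-116700822, plus strand), the main cytosolic thioredoxin-dependent member, was 501, 530, 558 and 459 FPKM in HFrD mice 1, 2, 5 and 7, against 533, 554, 566 and 497 FPKM in ND mice 1, 3, 6 and 7. HFrD mouse 7 was the lowest of the 8. Its log2 difference of -0.073 (95% interval -0.27 to 0.12, limma adjusted p = 0.654) took the other sign, 0.10, after quantile normalization. *Prdx2* (chr8:84969587-84974834, plus strand), the cytosolic relative that is most abundant in red blood cells, ranged over 51.1 to 58.9 FPKM in HFrD and 45.2 to 55.6 FPKM in ND mice. Its log2 difference was 0.11 (95% interval -0.087 to 0.30, limma adjusted p = 0.479). Markers of red blood cells, summed, were 149 to 399 FPKM in HFrD and 178 to 269 FPKM in ND mice, the top of the HFrD range being mouse 2. Of 5 such markers tested, 1 was called lower in HFrD mice (*Alas2*, log2 difference -0.33, limma adjusted p = 0.0494). Over all genes tested, 3.69% were called lower. The *Alas2* call was kept in 0 of 8 fits without 1 mouse and in 4 of 9 other settings. The other 4 markers averaged higher in HFrD mice and were not called (*Hba-a1* 0.21, *Hba-a2* 0.71, *Hbb-bs* 0.080 and *Hbb-bt* 0.15). The part of red blood cells in the *Prdx2* level was not tested.

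*Prdx4* (chrX:155323918-155340754, minus strand), the member of the endoplasmic reticulum, ranged over 60.3 to 77.0 FPKM in HFrD and 63.8 to 70.4 FPKM in ND mice, with a log2 difference of 0.071 (95% interval -0.14 to 0.28, limma adjusted p = 0.679). The HFrD range enclosed the ND range. *Prdx5* (chr19:6906697-6910106, minus strand), found in mitochondria, peroxisomes and cytosol, ranged over 97.3 to 116 FPKM in HFrD and 90.1 to 101 FPKM in ND mice, with a log2 difference of 0.13 (95% interval -0.063 to 0.32, limma adjusted p = 0.387). HFrD mice 1 and 2 were above every ND mouse. The authors' loci for *Prdx2* and *Prdx5* are shared with neighbouring genes (*Rnaseh2a*, and *Esrra* with *Trmt112*), of which *Rnaseh2a* and *Trmt112* overlap on the other strand. *Junb* also overlaps *Prdx2* on the other strand, by 351 bases. *Prdx1* has 2 near-identical pseudogenes, and *Prdx2* has *Tdpx-ps1* (96.3% identity over 597 bases). The values of *Prdx1*, *Prdx2* and *Prdx5* thus carry an uncertainty from counting that the replicates do not show.

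As a family, the 10 members summed to 2478 to 2820 FPKM in HFrD and 2828 to 3045 FPKM in ND mice. The ranges lay next to each other without overlap, but HFrD mouse 1 at 2820 FPKM and ND mouse 7 at 2828 FPKM nearly met. The FPKM of all genes summed to 473888 to 489433 in HFrD and 486099 to 506258 in ND mice. The family sums were not rescaled for this, so their separation depends on the authors' scaling. The means were 2639 ± 140 FPKM in HFrD and 2936 ± 89.7 FPKM in ND mice (SD, n = 4 each), and *Cat* made up most of that difference. The peroxiredoxins alone summed to 1011 ± 62.6 FPKM in HFrD and 1057 ± 27.6 FPKM in ND mice. HFrD mice varied more among themselves than ND mice in 7 of the 10 members, with a median coefficient of variation of 8.99% in HFrD and 5.43% in ND mice. Over all tested genes with a level above 0 in both diets, 47.2% varied more among HFrD mice, with medians of 15.1% in HFrD and 15.7% in ND mice.

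**Figure D4:**
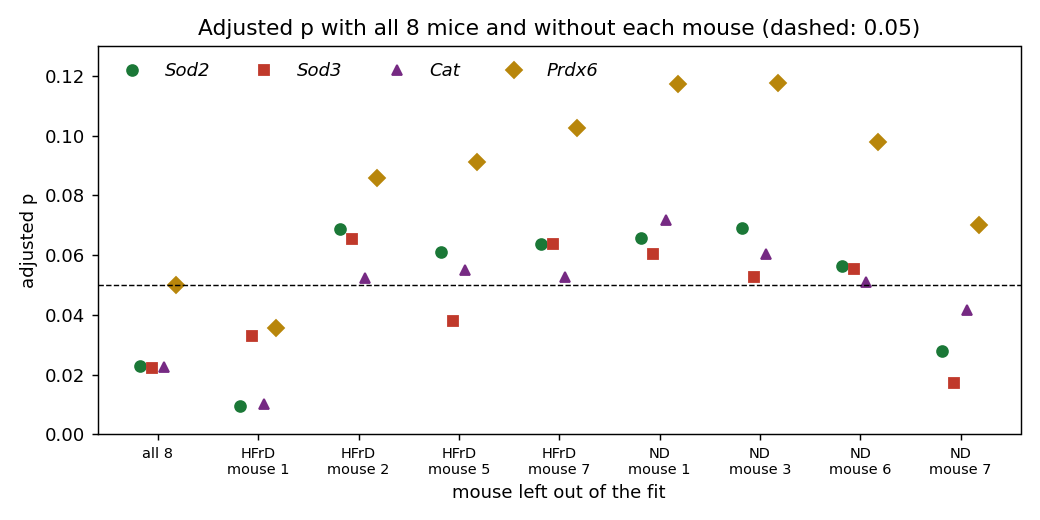
Limma adjusted p of *Sod2*, *Sod3*, *Cat* and *Prdx6* with all 8 mice and without each mouse in turn, with a dashed line at 0.05. Without HFrD mouse 1 all 4 genes lie under the line, without ND mouse 7 *Sod2*, *Sod3* and *Cat* do, and without HFrD mouse 5 *Sod3* alone does.

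Markers of other cell types were examined in the same libraries, and those of Kupffer cells were higher in HFrD mice. The summed FPKM of 10 markers of Kupffer cells, the resident macrophages of the liver, came to 190 to 280 in the HFrD mice and to 89.8 to 145 in the ND mice, and 9 of the 10 were called higher. Markers of sinusoidal endothelial cells summed to 92.5 to 109 FPKM in HFrD and 71.7 to 85.8 FPKM in ND mice (2 of 8 called higher). Stellate cell markers summed to 167 to 185 FPKM in HFrD and 125 to 163 FPKM in ND mice (1 of 8 called higher), but the median log2 difference of that list was 0.063 and *Lrat*, *Reln* and *Des* averaged lower in HFrD mice. Of all genes tested, 5.44% were called higher, and 1 or 2 calls among 8 markers are given as a description. Unadjusted limma p was under 0.05 for 10 of 10 Kupffer cell, 7 of 8 sinusoidal endothelial and 3 of 8 stellate cell markers. Over all genes tested that share was 25.5%. In these 3 lists the sums of the diets did not overlap and no marker was at 0 in all libraries. Cholangiocyte markers summed to 26.5 to 48.3 FPKM in HFrD and 24.4 to 41.1 FPKM in ND mice. Most of that sum was *Spp1*, at 34.5 ± 11.5 FPKM in HFrD and 28.8 ± 6.73 FPKM in ND mice. Only 3 of the 6 cholangiocyte markers passed the filter on low levels. Neutrophil markers summed to 4.74 to 12.2 FPKM in HFrD and 3.64 to 12.02 FPKM in ND mice. T and B cell markers summed to 2.02 to 2.86 FPKM in HFrD and 2.12 to 3.83 FPKM in ND mice. *Ly6g*, a defining neutrophil marker, was at 0 in every library. The part of these cells in the levels of *Sod2*, *Sod3*, *Cat* and *Prdx6* was not tested.

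The genes that supply, restore or feed these enzymes were taken as 8 lists with 81 genes, of which 71 could be tested. Of these, 6 were called higher (8.45%) and 4 lower (5.63%), beside 5.44% and 3.69% of all genes tested. With 4 to 16 genes tested in each list, the counts of single lists are a description. Glutathione peroxidases, which remove peroxides with glutathione, had 0 of 6 called by limma, with a median log2 difference of 0.059. An unadjusted limma p under 0.05 was found for 1 of these peroxidases, beside 25.5% of all genes tested. The most abundant was *Gpx1*, at 566 ± 107 FPKM in HFrD and 768 ± 66.6 FPKM in ND mice (SD, n = 4 each, log2 difference -0.45, limma adjusted p = 0.0606).

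Genes that restore oxidised peroxiredoxins and other thiols had 2 of 11 called, both higher. The thioredoxin-like *Txnl1* rose by 0.51 on the log2 scale (39.4 ± 5.90 FPKM in HFrD and 27.1 ± 1.32 FPKM in ND mice, limma adjusted p = 0.0190). Glutaredoxin, *Glrx*, rose by 0.44 (17.8 ± 1.95 FPKM in HFrD and 12.8 ± 1.38 FPKM in ND mice, limma adjusted p = 0.0312). Thioredoxin itself, *Txn1*, was the most abundant, at 133 ± 12.4 FPKM in HFrD and 137 ± 6.12 FPKM in ND mice, and was not called. Of sulfiredoxin, which repairs overoxidised peroxiredoxins, and the sestrins, 0 of 4 were called by limma (1 at an unadjusted p under 0.05, beside 25.5% of all genes tested). *Srxn1* was 12.7 ± 1.55 FPKM in HFrD and 10.2 ± 1.34 FPKM in ND mice (limma adjusted p = 0.165).

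In glutathione synthesis and reduction, 2 of 7 were called and both were lower. *Gss*, glutathione synthetase, fell by 0.92 on the log2 scale (11.98 ± 3.36 FPKM in HFrD and 23.4 ± 4.48 FPKM in ND mice, limma adjusted p = 0.0175). *Gclm*, the modifier subunit of the rate-limiting ligase, fell by 0.55 (79.8 ± 11.97 FPKM in HFrD and 117 ± 15.9 FPKM in ND mice, limma adjusted p = 0.0271), although its ranges overlapped. *Slc25a39*, a mitochondrial glutathione carrier with the highest mean of the list over all 8 mice but not within ND mice, was 130 ± 3.19 FPKM in HFrD and 114 ± 7.81 FPKM in ND mice (limma adjusted p = 0.156).

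Copper and manganese are the metals of the superoxide dismutases, and 3 of 10 genes of their supply were called. The copper chaperone *Atox1*, which had the highest mean over all 8 mice but not within ND mice, rose by 0.52 on the log2 scale (97.7 ± 2.50 FPKM in HFrD and 68.2 ± 9.97 FPKM in ND mice, limma adjusted p = 0.0147). *Slc39a14*, a carrier of manganese and zinc, rose by 0.36 (92.6 ± 12.2 FPKM in HFrD and 71.3 ± 2.27 FPKM in ND mice, limma adjusted p = 0.0470). *Slc31a1*, the high-affinity copper importer, fell by 0.30 (60.1 ± 4.0 FPKM in HFrD and 73.9 ± 2.39 FPKM in ND mice, limma adjusted p = 0.0392).

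On the side of production, *Acox2*, the peroxisomal oxidase of branched acyl-CoA and bile acid intermediates, was the 1 called of 9 oxidases that release hydrogen peroxide. It fell by 0.66 on the log2 scale (50.6 ± 2.27 FPKM in HFrD and 81.0 ± 7.10 FPKM in ND mice, limma adjusted p = 0.00195). Urate oxidase, *Uox*, the most abundant oxidase, was 2076 ± 241 FPKM in HFrD and 1833 ± 133 FPKM in ND mice (limma adjusted p = 0.358). Of 16 peroxisome import and biogenesis genes, 0 were called by limma, beside 9.12% of all genes tested. An unadjusted p under 0.05 was found for 3 of the 16, beside 25.5% of all genes tested. The most abundant, *Pex19*, was 40.7 ± 1.08 FPKM in HFrD and 43.1 ± 3.33 FPKM in ND mice.

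NADPH oxidase subunits had 2 of 8 called, both higher. *Cyba* rose by 1.19 on the log2 scale (6.48 ± 1.76 FPKM in HFrD and 2.23 ± 0.555 FPKM in ND mice, limma adjusted p = 0.00656) and *Cybb* by 0.64 (5.88 ± 0.816 FPKM in HFrD and 3.47 ± 0.933 FPKM in ND mice, limma adjusted p = 0.0372). They encode the membrane subunits of the phagocyte oxidase, and the Kupffer cell markers given above rose with them, whose part was not tested. *Nox4*, the most abundant of the list, was 17.6 ± 4.88 FPKM in HFrD and 27.0 ± 4.73 FPKM in ND mice (log2 difference -0.61, limma adjusted p = 0.0627). Of the 10 called genes of these lists, *Atox1*, *Acox2* and *Cyba* kept their calls without any single mouse. *Txnl1* and *Gss* lost theirs in 2 of 8 fits (highest limma adjusted p of 0.0569 and 0.0530, with ND mouse 1 left out). *Glrx* and *Slc31a1* (0.0851 and 0.106, without ND mouse 1), *Gclm* (0.0784, without ND mouse 3), and *Slc39a14* and *Cybb* (0.115 and 0.0858, without HFrD mouse 7) lost theirs in 6 or 7 of 8. Under the other settings, *Slc39a14* was called in 6 of 9 (limma adjusted p up to 0.112), *Cybb* in 7 of 9 (up to 0.116), and *Slc31a1* and *Gclm* in 8 of 9 (up to 0.0717 and 0.0519).

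**Figure D5:**
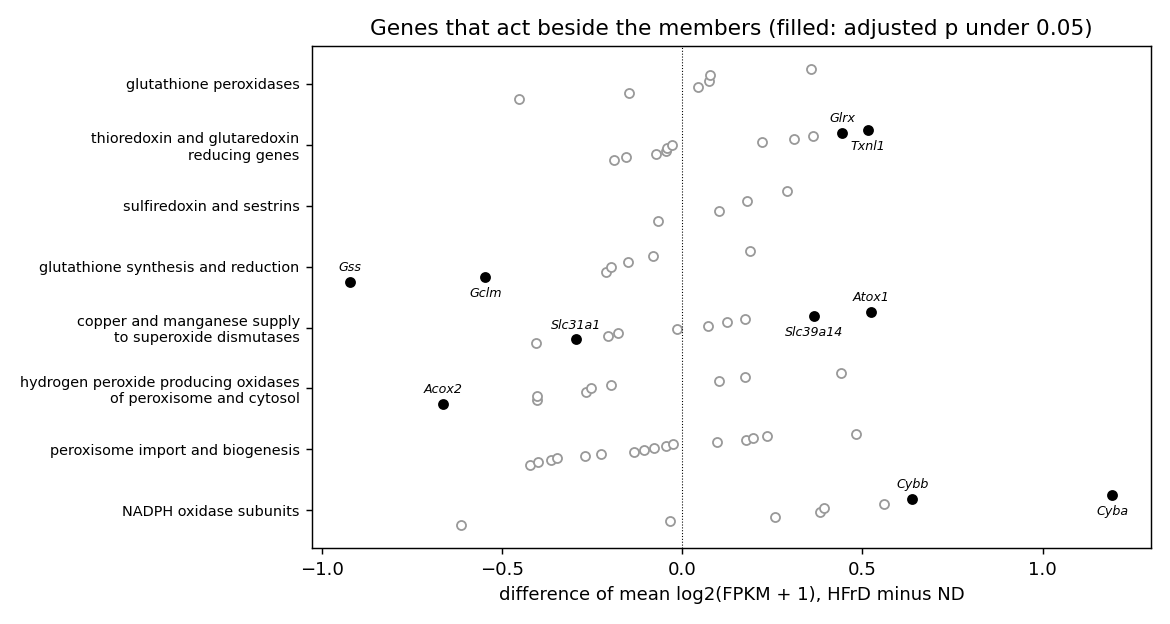
Difference of mean log2(FPKM + 1) between 4 HFrD and 4 ND mice for each of the 71 tested genes of the 8 lists, 1 point for each gene, with called genes filled and named. Called genes run to -0.92 for *Gss* on the lower side and to 1.19 for *Cyba* on the higher side.

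For each called member, the non-member genes with the most similar pattern over the 8 mice were sought among 4323 genes averaging 10 FPKM or more. For *Sod2* they were *Dido1* and *Ggact* (Pearson r of 0.992 and 0.991, Spearman rho of 0.976 for both). *Sod3* was nearest to *H2-Q10* (r = 0.983, rho = 0.929) and *Tmem256* (r = 0.980, rho = 1). *Cat* was nearest to *Erap1* (r = 0.982, rho = 0.952) and *Taco1* (r = 0.979, rho = 0.929). The 8 mice fall into the diets, so a diet difference shared by both genes enters these values, which are given as a description.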

How the data were processed

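Liver mRNA of 8 mice was measured by RNA-Seq. Reads were trimmed (Cutadapt 1.9.3) and aligned to the mm10 genome (HISAT2 2.0.4) by the authors. Cufflinks and Cuffdiff appear in the processing notes of the submitters, without versions. The authors deposited 1 table of FPKM for 22564 protein-coding genes. The strand setting and annotation release are not given in the sources used here, and the library kit differs between the labels and the paper. The labels gave the diet of each mouse. Genes averaging 0.5 FPKM or more were tested on the log2(FPKM + 1) scale, computed from the deposited values, with limma 3.58.1 (R 4.3.3, eBayes with trend, Benjamini-Hochberg), after the script had been tested on simulated data. Single members were also tested by exact two-sided permutation. Members and lists were chosen with earlier results of these data known.

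Pathway genes named are, in each list, up to 3 called genes with the smallest adjusted p and the gene with the highest mean FPKM. Markers of cell types were summed. Gene positions are from GENCODE M21 (GRCm38), copies were sought with BLAST+ 2.17.0 at 95% identity over 150 bases, and sequences are from RefSeq. The fits were repeated with no filter, a filter at 1 FPKM, a pseudocount of 0.1, quantile normalization, equal medians, array weights, no variance trend, a replicate block and each library left out. Leaving out HFrD mouse 1 together with ND mouse 7 was an alternative added after seeing the data. Python 3.11.15, pandas 2.3.3 and matplotlib 3.10.9 were used.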

Additional observations from a re-analysis of the deposited data

Results flagged for a closer look

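Among 64 sets of 4 mice of 1 diet (the members, their sums and the named pathway genes), 1 value stood far from the others of its diet. *Uox*, urate oxidase, was 2031 FPKM in ND mouse 3, and the next highest ND mouse had 1781 FPKM. The gap was 0.871 of the whole range of the ND mice (above Dixon's 95% critical value). Chance flags about 1 in 20 such sets.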

How the results depend on the processing

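The directions of *Sod2*, *Sod3*, *Cat* and *Prdx6* held in every alternative that was run. *Sod2*, *Sod3* and *Cat* stayed past the threshold in all 9 other settings and lost it in 6, 5 and 6 of the 8 fits without 1 mouse. Their highest limma adjusted p in the 9 settings was 0.0427, 0.0421 and 0.0467. *Cat* changed least after quantile normalization, with a log2 difference of -0.30 (limma adjusted p = 0.0467). Among the 9 is the fit without HFrD mouse 1 and ND mouse 7, the mice closest to the opposite diet on the first principal component. It was added after seeing the data, so passing there is no check on the calls. *Prdx6* passed the threshold with a mean of at least 1 FPKM (log2 difference -0.31), after quantile normalization (-0.32), with equal medians (-0.33) and with array weights (-0.32). It also passed with the replicate block (-0.31, limma adjusted p = 0.0456) and without HFrD mouse 1 and ND mouse 7 (-0.35). Signs turned for *Prdx1* after quantile normalization (0.10) and for *Sod1* without these 2 mice (-0.028), neither called in any setting. Leaving out 1 mouse gave log2 differences of 0.0059 to 0.13 for *Sod1*, -0.42 to -0.34 for *Sod2*, 0.51 to 0.67 for *Sod3*, -0.47 to -0.36 for *Cat* and -0.34 to -0.24 for *Prdx6*. For the other members the ranges were -0.12 to -0.021 for *Prdx1*, 0.049 to 0.15 for *Prdx2*, 0.12 to 0.31 for *Prdx3*, 0.029 to 0.14 for *Prdx4* and 0.081 to 0.17 for *Prdx5*. Members called higher then numbered 0 to 1 and lower 0 to 3, all genes called higher 340 to 659 and lower 183 to 634, and pathway genes called higher 2 to 5 and lower 1 to 9. Pathway genes called lower were 7 with equal medians and 9 without HFrD mouse 1 and ND mouse 7, where 701 of all genes were lower. Mouse numbers 1 and 7 occur in both diets, and nothing in the labels says that they pair mice. Deviations of same-numbered mice correlated at 0.077 and -0.014, within the range of -0.14 to 0.11 for mice with different numbers. So few pairs cannot settle whether the numbers pair mice. The replicate block called 653 genes higher and 440 lower. Without read counts, the counting error of *Sod3* at this depth is unknown.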
